A study of Mus musculus with 12 samples.

Results

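The lung liquid clearance transport genes are 9 genes of ion and water transport, chosen by symbol, and all 9 were among the 16152 genes of the count table. They are *Scnn1a*, *Scnn1b*, *Scnn1g*, *Cftr*, *Atp1b1*, *Slc12a2*, *Aqp1*, *Nedd4l* and *Sgk1*. Their RNA was measured in whole lungs from C57BL/6 mice (female and male) on the embryonic days E15.5 and E18.5 and the postnatal days P5 and P8, with 3 replicates at each of the 4 time-points and no treatment in any group. All 3 replicates of a time-point were littermates, so that litter and time-point cannot be told apart, and the p-values measure only the spread between these replicates. The libraries held 41337443 to 53901957 counted reads each, and the 9 genes had between 193 and 65799 counts in a library. Levels are given in CPM, the reads of a gene scaled to the mapped reads of its library.

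Before birth the lung epithelium secretes liquid: the cotransporter encoded by *Slc12a2* (NKCC1) loads chloride into the cell across the basolateral membrane, and chloride leaves across the apical membrane through channels such as CFTR. For air breathing this liquid has to be absorbed, which is driven by sodium that enters through the epithelial sodium channel ENaC and is pumped out by the sodium pump, with water following. ENaC is built from the α, β and γ subunits of *Scnn1a*, *Scnn1b* and *Scnn1g*, and mice without the α subunit fail to clear their lung liquid after birth. The ubiquitin ligase of *Nedd4l* removes ENaC from the membrane, and the kinase of *Sgk1*, a gene induced by glucocorticoids, restrains that ligase. *Atp1b1* encodes the β1 subunit of the sodium pump, and *Aqp1* encodes a water channel that in the lung is known mainly from capillary endothelium.

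*Scnn1g* and *Scnn1b* are neighbours on chromosome 7 of mm10 (121734479 to 121768475 and 121865038 to 121918514, both on the plus strand), and *Scnn1a* lies on chromosome 6 (125320659 to 125344943, plus strand). The 250 bases before the start of 4 of the 5 genes with the largest changes after E18.5, and of *Cftr*, which did not pass the test in that interval, are shown to set the windows of genes with similar and different time courses side by side. The sequences are from RefSeq on GRCm38.p6, the assembly that mm10 names, and all are on the plus strand, at chr7:121734229-121734478 (*Scnn1g*), chr7:121864788-121865037 (*Scnn1b*), chr10:21993640-21993889 (*Sgk1*), chr6:55336049-55336298 (*Aqp1*) and chr6:18170437-18170686 (*Cftr*). No annotated exon overlaps them. Capitals mark the GC box GGGCGG, bound by Sp1 family factors, on either strand (CCGCCC), and in *Sgk1* also the hexamer TGTTCT, to which 1 glucocorticoid receptor of a pair binds, and its reverse complement AGAACA.
Scnn1g: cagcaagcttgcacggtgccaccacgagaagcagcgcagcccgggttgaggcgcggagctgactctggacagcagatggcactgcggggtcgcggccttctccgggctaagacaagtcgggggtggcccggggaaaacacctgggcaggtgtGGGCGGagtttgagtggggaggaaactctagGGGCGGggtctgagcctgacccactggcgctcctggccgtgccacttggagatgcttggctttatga
Scnn1b: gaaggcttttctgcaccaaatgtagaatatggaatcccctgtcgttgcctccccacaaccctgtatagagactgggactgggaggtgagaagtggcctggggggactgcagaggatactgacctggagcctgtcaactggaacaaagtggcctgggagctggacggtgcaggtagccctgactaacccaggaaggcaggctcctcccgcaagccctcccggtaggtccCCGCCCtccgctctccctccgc
Sgk1: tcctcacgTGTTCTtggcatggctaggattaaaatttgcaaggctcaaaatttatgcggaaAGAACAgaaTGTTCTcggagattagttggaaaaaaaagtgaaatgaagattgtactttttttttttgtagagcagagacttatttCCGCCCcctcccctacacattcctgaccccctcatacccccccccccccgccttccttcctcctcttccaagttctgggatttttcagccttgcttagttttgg
Aqp1: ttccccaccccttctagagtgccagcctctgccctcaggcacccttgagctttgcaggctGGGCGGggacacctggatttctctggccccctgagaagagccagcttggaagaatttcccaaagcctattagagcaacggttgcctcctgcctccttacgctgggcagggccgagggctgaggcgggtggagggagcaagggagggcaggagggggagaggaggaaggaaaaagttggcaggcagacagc
Cftr: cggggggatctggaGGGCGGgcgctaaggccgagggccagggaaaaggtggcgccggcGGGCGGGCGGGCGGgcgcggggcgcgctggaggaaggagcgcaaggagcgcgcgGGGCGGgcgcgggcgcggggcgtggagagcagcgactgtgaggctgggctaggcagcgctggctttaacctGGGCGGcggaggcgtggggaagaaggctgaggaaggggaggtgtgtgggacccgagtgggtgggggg

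The *Sgk1* window is 1 of 6 annotated starts of that gene, shown because it holds the letters AGAACA and TGTTCT at 3 bases from each other, the paired form of a glucocorticoid response element, starting 189 bases before the start. Of all 32851 upstream windows of the same length in the table, 3 (0.00913%) hold this pair, and 16.1% hold at least 1 of the hexamers. A GC box is in 32.7% of all windows and in each of the 5 windows shown, once in *Scnn1b*, *Sgk1* and *Aqp1*, 2 times in *Scnn1g* and 6 times, with overlaps, in *Cftr*. The *Sgk1* windows not shown held 0 GC boxes, except for 1 window with 4. Windows were kept for 6 of the 9 members. There was no entry for *Scnn1a*, and windows on chromosome 18, where *Slc12a2* and *Nedd4l* lie, were left out, so their letters are not described. Among those 6, only *Sgk1* had a hexamer in its windows, and it had more windows than any other of them. These matches describe letters only, and binding of a factor was not measured.

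From E18.5 to P5, the interval that contains birth, 6 of the 9 genes rose past both cutoffs (edgeR FDR under 0.05 and an absolute log2 fold change above 1): the 3 ENaC subunits, *Sgk1*, *Aqp1* and *Atp1b1*. In the same comparison, 17.5% of the 15994 genes tested were past both cutoffs in that direction. The other 3 genes, *Cftr*, *Slc12a2* and *Nedd4l*, were not past the FDR threshold. The median log2 fold change of the 9 genes was 3.01, beside -0.0024 over all genes tested. The 6 genes that rose include the ENaC subunit genes and the kinase gene *Sgk1*, while the chloride genes *Cftr* and *Slc12a2* and the ligase gene *Nedd4l* are the 3 that did not pass. In whole lung, the cells that held each transcript, that of *Sgk1* included, were not identified. Bulk RNA cannot tell a change in the number of cells of a type from a change in the RNA per cell, which holds for each level given here.

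**Figure D1:**
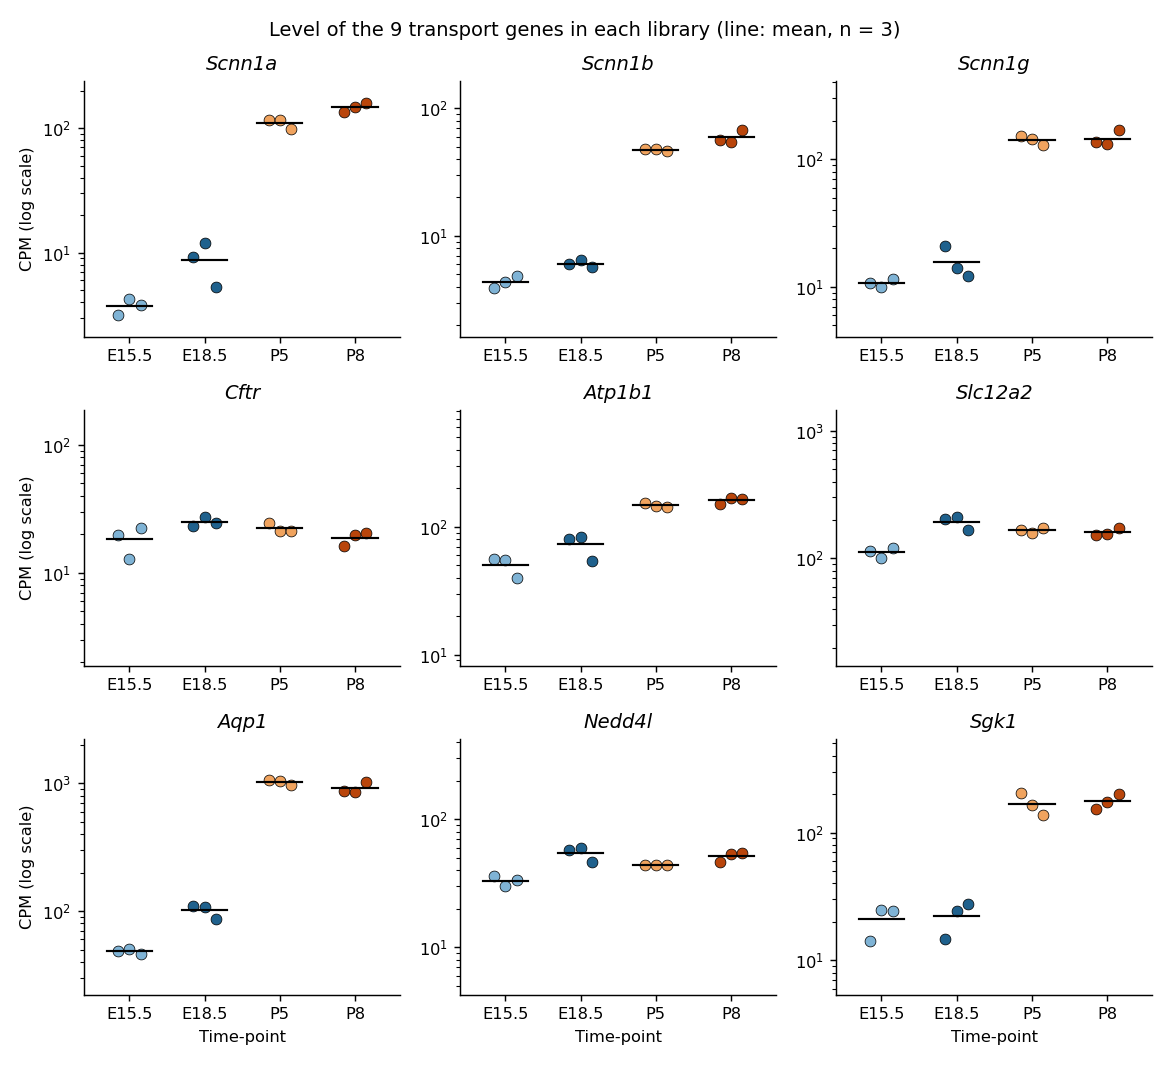
Level of each of the 9 genes in each of the 12 libraries, in CPM on a logarithmic axis that spans at least 100-fold in every panel, with points for libraries and a line for the mean of the 3 replicates. The P5 and P8 points lie above all E15.5 and E18.5 points for Scnn1a, Scnn1b, Scnn1g, Atp1b1, Aqp1 and Sgk1, and within or near the earlier range for Cftr, Slc12a2 and Nedd4l.

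*Scnn1a*, which encodes the α subunit, was at 3.16, 4.25 and 3.80 CPM in the E15.5 libraries, 9.17, 11.9 and 5.24 in those of E18.5, 115.4, 116 and 98.7 in those of P5 and 135, 147 and 159.7 in those of P8. Each time-point lay wholly above the one before it, and E18.5 replicate 3 was the lowest of its group. Its log2 fold change was 1.24 between E15.5 and E18.5 (standard error (SE) 0.23, edgeR FDR = 0.0044) and 3.74 between E18.5 and P5 (SE 0.23, edgeR FDR = 3.1e-08), which is 13.4-fold. From P5 to P8 it was 0.40 (SE 0.20, edgeR FDR = 0.18), and past the threshold when the libraries of P5 and P8 alone were fitted (edgeR FDR = 0.021), with FDR up to 0.44 in the other alternatives. Over the whole course from E15.5 to P8 *Scnn1a* rose 41.6-fold, the largest change of the 9 genes.

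*Scnn1b*, the gene of the β subunit, was at 3.94, 4.32 and 4.84 CPM in the E15.5 libraries, 6.01, 6.43 and 5.70 in those of E18.5, 47.6, 47.6 and 46.5 in those of P5 and 56.7, 54.7 and 67.5 in those of P8. As for *Scnn1a*, successive time-points did not overlap. The rise from E18.5 to P5 was 8.30-fold (log2 3.05, SE 0.10, edgeR FDR = 4.2e-10), after a smaller one before birth (log2 0.48, SE 0.10, edgeR FDR = 0.0076). That earlier call was lost when the libraries of E15.5 and E18.5 alone were fitted (edgeR FDR = 0.053), with FDR from 0.0011 to 0.032 in the other alternatives. In the fit of all 12 libraries it was the single member past the FDR threshold from P5 to P8 (log2 0.32, SE 0.089, edgeR FDR = 0.03), and that call was lost, with FDR between 0.062 and 0.13, without P5 replicate 1, P5 replicate 2, P5 replicate 3, P8 replicate 1 or P8 replicate 3.

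*Scnn1g*, the gene of the γ subunit, stood at 10.8, 9.95 and 11.5 CPM in the E15.5 libraries, 20.8, 14.0 and 12.3 in those of E18.5, 151, 144 and 128.6 in those of P5 and 136, 131 and 168 in those of P8. The embryonic libraries stayed under 21 CPM and the postnatal ones over 128 CPM, and the ranges of P5 and P8 overlapped. It rose 9.57-fold from E18.5 to P5 (log2 3.26, SE 0.18, edgeR FDR = 1.5e-08) and changed by 0.016 on the log2 scale from P5 to P8 (SE 0.16, edgeR FDR = 0.96). Its earlier rise, 0.55 on the log2 scale from E15.5 to E18.5 (SE 0.18, edgeR FDR = 0.042), was not past the threshold when any of E15.5 replicates 1, 2 and 3 or E18.5 replicates 1 and 2 was left out (FDR 0.053 to 0.16), nor in the fit of E15.5 and E18.5 alone (edgeR FDR = 0.069) or without the 3 libraries with most thymus marker reads (edgeR FDR = 0.1, a setting chosen after seeing the data).

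Set side by side per exon length, the 3 subunit transcripts changed their proportions. At E15.5 *Scnn1a* made up 14.7% ± 2.15 (SD, n = 3) of the summed CPM per kilobase, which became 21.7% ± 6.27 by E18.5, 29.0% ± 0.816 by P5 and 33.5% ± 1.84 by P8. Over the same time-points *Scnn1g* went from 58.4% ± 2.99 to 54.0% ± 6.96, 51.4% ± 0.858 and 45.3% ± 1.502, and it was the most abundant of the 3 in each of the 12 libraries. *Scnn1b* held 26.9% ± 1.24, 24.4% ± 4.41, 19.6% ± 1.13 and 21.2% ± 0.430. Their sum was 6.15 ± 0.393 and 9.66 ± 1.99 CPM per kilobase at the embryonic and 91.8 ± 6.41 and 107 ± 11.9 at the postnatal time-points.

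These proportions were tested as ratios within a library, which need no normalization between libraries, over the 6 embryonic and 6 postnatal libraries with an exact two-sided permutation test (Benjamini-Hochberg adjusted over 8 ratios, of which 7 are given). The test treats every library as independent, although those of a time-point were littermates. The *Scnn1b* to *Scnn1a* ratio was 1.95, 1.60 and 2.0003 in the E15.5 libraries, 1.03, 0.850 and 1.71 in those of E18.5, 0.648, 0.642 and 0.738 in those of P5 and 0.661, 0.584 and 0.663 in those of P8. All embryonic libraries lay above all postnatal ones, and the mean log2 ratio fell by 1.15 (exact permutation, adjusted p = 0.0029, with an unadjusted p of 0.0022, the smallest that 6 against 6 can give). From E18.5 to P5 alone the change was -0.76, given with no test. The *Scnn1g* to *Scnn1a* ratio fell by 1.04 on the log2 scale (exact permutation, adjusted p = 0.0099), although E18.5 replicate 2, at 1.63, lay within the postnatal range of 1.23 to 1.81. The step from E18.5 to P5 was -0.52, given with no test. The mean log2 ratio was 1.35 by E18.5, below that of E15.5, and went from 0.83 by P5 to 0.44 by P8. For *Scnn1b* to *Scnn1g* the difference was -0.11 (exact permutation, adjusted p = 0.4), with the embryonic log2 ratios between -1.61 and -0.92 and the postnatal ones between -1.49 and -1.07.

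**Figure D2:**
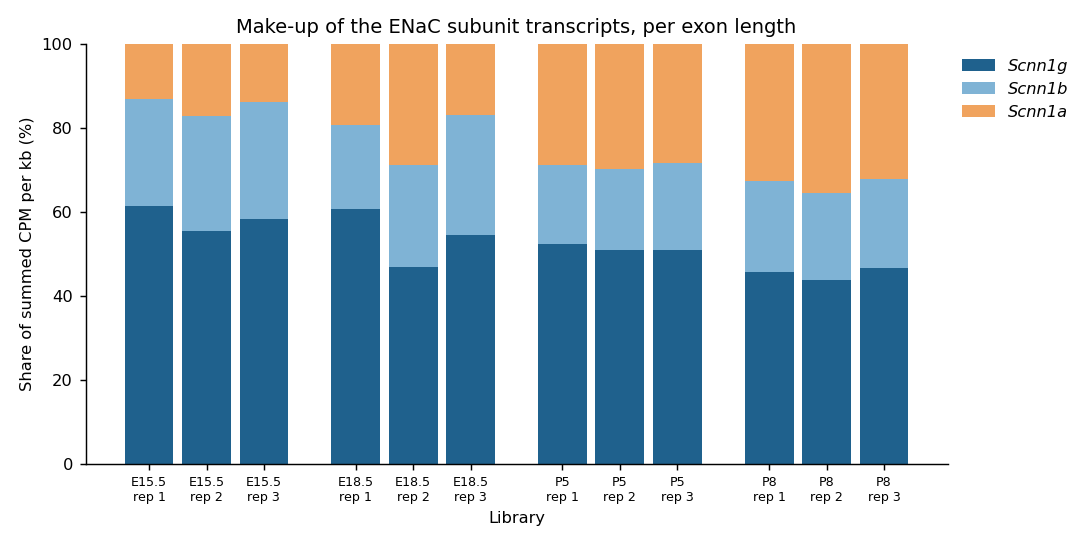
Share of Scnn1g, Scnn1b and Scnn1a in the summed CPM per kilobase of exon of the 3 ENaC subunit genes, in percent, with 1 stacked bar per library grouped by time-point. The Scnn1a share lies between 13.1% and 17.1% at E15.5, spreads from 16.8% to 28.7% at E18.5, and lies between 28.3% and 35.6% after birth.

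*Sgk1*, the kinase gene, was at 14.2, 24.8 and 24.2 CPM in the E15.5 libraries, 14.7, 24.5 and 27.5 in those of E18.5, 204, 164 and 137 in those of P5 and 152, 173 and 200.6 in those of P8. The embryonic time-points overlapped each other and so did the postnatal ones, with a gap from 27.5 to 137 CPM between them. From E18.5 to P5 *Sgk1* rose 8.08-fold (log2 3.01, SE 0.26, edgeR FDR = 4.9e-07). Unlike the ENaC subunits, it did not pass the test from E15.5 to E18.5 (log2 0.084, SE 0.25, edgeR FDR = 0.84), and a difference between genes in that interval was not tested. At P5 it had the widest spread of the 9 genes relative to its mean, at 168 ± 33.4 CPM (SD, n = 3).

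*Nedd4l*, the ligase gene that the kinase of *Sgk1* acts on, was at 35.7, 30.3 and 33.5 CPM in the E15.5 libraries, 58.1, 59.3 and 46.1 in those of E18.5, 43.7, 44.4 and 43.6 in those of P5 and 46.2, 53.8 and 54.3 in those of P8. It rose 1.65-fold from E15.5 to E18.5 (log2 0.72, SE 0.098, edgeR FDR = 0.0011). All P5 libraries were below all E18.5 libraries, and the log2 fold change of -0.23 (SE 0.097, edgeR FDR = 0.053) lay next to the threshold. It was -0.34 (edgeR FDR = 0.0025) without E18.5 replicate 3, the library with the lowest *Nedd4l* level of its group, and -0.29 (edgeR FDR = 0.017) with library size in place of TMM, within a range of FDR from 0.0025 to 0.19 over all alternatives. From P5 to P8 *Nedd4l* passed the threshold when those libraries alone were fitted (log2 0.21, edgeR FDR = 0.038) and not in the fit of all 12, with FDR from 0.13 to 0.36 in the other alternatives. The *Sgk1* to *Nedd4l* ratio per length was between 0.911 and 2.95 in the embryonic and between 11.3 and 16.8 in the postnatal libraries, a difference of 2.86 on the log2 scale (exact permutation, adjusted p = 0.0029).

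For the sodium pump, *Atp1b1* was at 55.8, 55.3 and 40.0 CPM in the E15.5 libraries, 80.1, 83.9 and 54.3 in those of E18.5, 154, 146 and 144 in those of P5 and 150.2, 168 and 165.5 in those of P8. Replicate 3 was low at both embryonic time-points, which overlapped, and all postnatal libraries were higher. The rise from E18.5 to P5 was 2.16-fold (log2 1.11, SE 0.15, edgeR FDR = 3.1e-05). It was 0.93 on the log2 scale, under the fold change cutoff, without E18.5 replicate 3. The call from E15.5 to E18.5 (log2 0.54, SE 0.15, edgeR FDR = 0.026) was lost without E15.5 replicate 3, E18.5 replicate 1 or E18.5 replicate 2 (FDR 0.075, 0.1 and 0.1), and in the fit of E15.5 and E18.5 alone (edgeR FDR = 0.057). Of the exon length of *Atp1b1*, 18.7% overlaps *Nme7* on the opposite strand, and the strand setting of the counting was not given in the sources used here, so part of these reads may belong to *Nme7*.

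Of the chloride genes, *Cftr* was at 19.9, 12.9 and 22.4 CPM in the E15.5 libraries, 23.4, 27.2 and 24.4 in those of E18.5, 24.7, 21.1 and 21.3 in those of P5 and 16.2, 19.7 and 20.3 in those of P8. The E18.5 libraries lay above the E15.5 ones, the P8 libraries lay below the P5 ones, and E15.5 and P8 overlapped. Its log2 fold changes were 0.45 (SE 0.17, edgeR FDR = 0.074), -0.071 (SE 0.17, edgeR FDR = 0.71) and -0.28 (SE 0.17, edgeR FDR = 0.26) over the 3 intervals. The first was past the FDR threshold with the DESeq2 test (FDR 0.038) and without E15.5 replicate 3 (FDR 0.023), and the FDR reached 0.2 in other alternatives.

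*Slc12a2*, the cotransporter gene, was at 114.9, 99.98 and 121 CPM in the E15.5 libraries, 202, 209.7 and 166 in those of E18.5, 167, 159 and 174 in those of P5 and 152, 155 and 175 in those of P8. It rose 1.73-fold from E15.5 to E18.5 (log2 0.79, SE 0.098, edgeR FDR = 0.00074), with all E18.5 libraries higher. After that the time-points overlapped, with log2 fold changes of -0.12 by P5 (SE 0.097, edgeR FDR = 0.27) and -0.072 between P5 and P8 (SE 0.097, edgeR FDR = 0.65). The first of these passed the threshold without E18.5 replicate 3 (log2 -0.22, edgeR FDR = 0.039), and the FDR reached 0.63 in other alternatives.

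Relative to both chloride genes, *Scnn1a* was higher in every postnatal than in every embryonic library. The *Scnn1a* to *Cftr* ratio per length was between 0.298 and 0.821 before birth and between 8.70 and 15.6 after it, a mean difference of 4.57 on the log2 scale (23.8-fold, exact permutation, adjusted p = 0.0029). For *Scnn1a* to *Slc12a2* the ratio went from between 0.0727 and 0.150 to between 1.503 and 2.51, a difference of 4.36 on the log2 scale (20.5-fold, exact permutation, adjusted p = 0.0029). From E18.5 to P5 alone the 2 differences were smaller, at 3.89 and 3.93. Thus there was less transcript of the α subunit than of either chloride gene, per length, in all 6 embryonic libraries, and more in all 6 postnatal libraries. In CPM, without lengths, the mean of *Scnn1a* stayed below that of *Slc12a2* at P5 (110 and 166) and at P8 (147 and 160).

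*Aqp1* had the highest mean level per kilobase of exon of the 9 genes at each time-point. It was at 49.1, 50.1 and 46.4 CPM in the E15.5 libraries, 109.8, 108 and 86.0 in those of E18.5, 1057, 1046 and 971 in those of P5 and 869, 856 and 1025 in those of P8. Its embryonic time-points did not overlap each other or the postnatal ones, and P5 and P8 overlapped. *Aqp1* rose 2.096-fold between E15.5 and E18.5 (log2 1.07, SE 0.10, edgeR FDR = 0.00023) and 10.7-fold from E18.5 to P5 (log2 3.43, SE 0.11, edgeR FDR = 3.7e-10), and its log2 fold change from P5 to P8 was -0.18 (SE 0.099, edgeR FDR = 0.22). *Aqp5*, the water channel gene of alveolar type 1 (AT1) cells, rose more, and the *Aqp1* to *Aqp5* ratio per length fell from between 31.1 and 103 in the embryonic libraries to between 5.30 and 6.47 in the postnatal ones (log2 difference -3.38, exact permutation, adjusted p = 0.0029, and -3.76 from E18.5 to P5 alone).

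**Figure D3:**
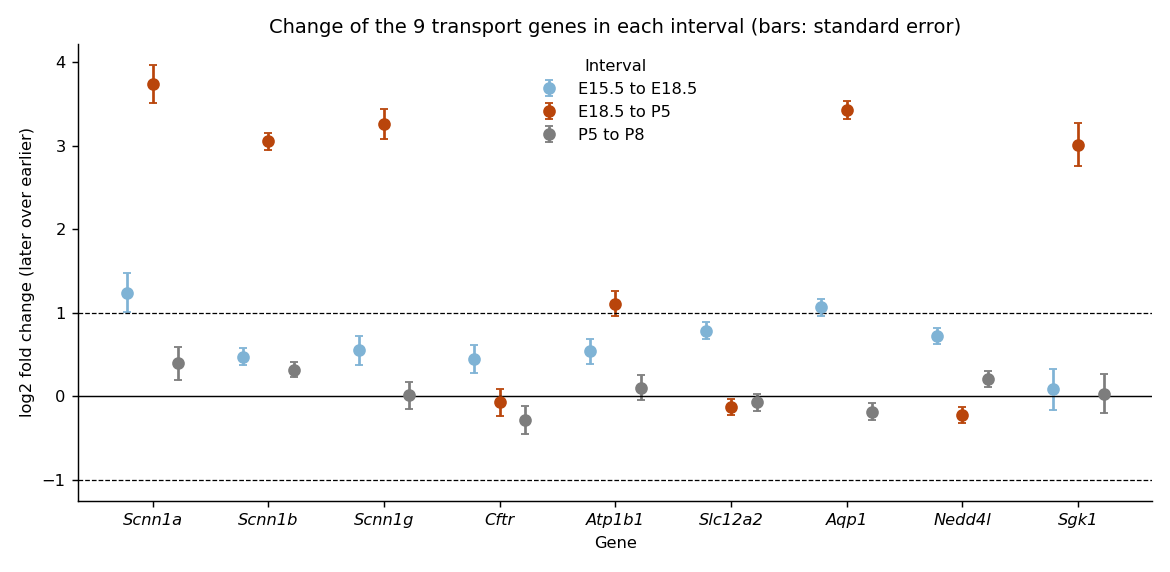
The log2 fold change of each of the 9 genes, later over earlier time-point, in the 3 intervals between adjacent time-points, with points for the edgeR estimate, bars for its standard error and dashed lines at a log2 fold change of 1 and -1. The E18.5 to P5 points of Scnn1a, Scnn1b, Scnn1g, Aqp1 and Sgk1 lie between 3.01 and 3.74, Atp1b1 lies at 1.11, and the P5 to P8 points of all 9 genes lie between -0.28 and 0.40.

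Over the interval before birth, from E15.5 to E18.5, 2 of the 9 genes were past both cutoffs, *Scnn1a* and *Aqp1*, beside 1.59% of all genes tested that were called higher. At the FDR threshold alone 7 of the 9 rose, beside 11.6% of all genes tested, and the 2 that did not pass were *Cftr* and *Sgk1*. When the libraries of these 2 time-points alone were fitted, 4 of the 7 calls held (*Scnn1a*, *Slc12a2*, *Aqp1* and *Nedd4l*), and those of *Scnn1b*, *Scnn1g* and *Atp1b1* did not. *Aqp1* fell to 0.996 on the log2 scale without E18.5 replicate 1 and *Scnn1a* to 0.96 without E18.5 replicate 2, which leaves 1 gene past both cutoffs in each case. E18.5 replicate 3 was the lowest of its group for 7 of the 9 genes (not for *Cftr* and *Sgk1*). It was also lowest in the summed markers of AT1 cells (321 CPM beside 440.3 and 440.2), alveolar type 2 (AT2) cells (1617 beside 1936 and 2519) and club cells (70.7 beside 119 and 116). The same held for the pan-epithelial (964 beside 1130 and 1099.5), ciliated (39.5 beside 67.4 and 64.8) and endothelial sums (1179 beside 1305 and 1268). Its smooth muscle sum was the highest (703 beside 679 and 577). The part of these differences in the results was not tested, and the share of all genes lowest in this library was not counted.

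From P5 to P8, 0 of the 9 genes were past both cutoffs with edgeR, DESeq2 or limma, where 2.88% of all genes tested were called higher by edgeR. At an unadjusted p under 0.05 there was 1, *Scnn1b*, which was also the 1 gene at the FDR threshold alone, beside 9.75% of all genes tested. With P5 and P8 alone in the fit there were 3 at that threshold, *Scnn1a*, *Scnn1b* and *Nedd4l*, all higher at P8. In P8 replicates 1 and 2 the summed CPM of 7 thymus markers was 197 and 376, beside 19.5 in P8 replicate 3 and 30.4 in E15.5 replicate 2, with 4.08 to 15.2 in the other 8 libraries. P8 replicate 3 was also the highest of its group in 8 of the 9 genes, *Atp1b1* excepted, and the part of the thymus reads in this was not tested. The share of all genes tested that were highest in that library was not counted. Without P8 replicates 1 and 2 and E15.5 replicate 2 together, 6 genes were past both cutoffs at P5 against E18.5 and 0 at P8 against P5, as with all libraries.

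Across the whole course from E15.5 to P8, which shares its libraries with the intervals above, 6 genes were past both cutoffs, beside 20.9% of all genes tested that were called higher, and 8 rose at the FDR threshold alone, beside 37.6%. The log2 fold changes were 5.38 for *Scnn1a*, 4.31 for *Aqp1*, 3.85 for *Scnn1b*, 3.83 for *Scnn1g*, 3.13 for *Sgk1*, 1.75 for *Atp1b1*, 0.71 for *Nedd4l* and 0.59 for *Slc12a2*. *Cftr* was the gene that did not pass (log2 0.097, SE 0.17, edgeR FDR = 0.61). Its sign turned to -0.10 without E15.5 replicate 2, which had the lowest *Cftr* level of all 12 libraries.

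The order of the levels per kilobase of exon changed with these differences. It depends on the lengths used, which merge all annotated exons of a gene (17659 bases for *Nedd4l* and 7765 for *Cftr*). At E15.5 *Aqp1* (18.48 CPM per kilobase), *Atp1b1* (16.3) and *Slc12a2* (10.3) were highest, followed by *Sgk1* (4.30), *Scnn1g* (3.59), *Cftr* (2.37), *Nedd4l* (1.88), *Scnn1b* (1.66) and *Scnn1a* (0.904). The libraries of *Aqp1* and *Atp1b1*, of *Sgk1* and *Scnn1g*, of *Cftr* and *Nedd4l* and of *Nedd4l* and *Scnn1b* overlapped. *Scnn1a* was thus lowest, with all of its libraries below all of those of *Scnn1b*.

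At E18.5 the order began with *Aqp1* (38.5), *Atp1b1* (23.6) and *Slc12a2* (17.6) and ended with *Scnn1b* (2.297) and *Scnn1a* (2.12), whose libraries overlapped. By P5 it was *Aqp1* (390.1 CPM per kilobase), *Atp1b1* (48.0), *Scnn1g* (47.2), *Sgk1* (34.3), *Scnn1a* (26.7), *Scnn1b* (17.9), *Slc12a2* (15.2), *Cftr* (2.88) and *Nedd4l* (2.49), with overlapping libraries for *Atp1b1* and *Scnn1g* and for *Sgk1* and *Scnn1a*. All 3 ENaC subunits had moved above *Slc12a2*, with no overlap between its libraries and those of *Scnn1b*, the lowest subunit. At P8 the order of the first 7 was the same as at P5, and *Cftr* (2.41) and *Nedd4l* (2.91), which overlapped, had changed places. In CPM, without lengths, the mean of *Nedd4l* was above that of *Cftr* at P5 (43.9 and 22.4) and at P8 (51.5 and 18.7).

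Markers of the cell types that hold these channels, and of other cell types, also moved between E18.5 and P5. At the FDR threshold alone (edgeR), 35.4% of all genes tested were higher and 35.7% lower in that interval. The summed CPM of 8 pan-epithelial markers went from between 964 and 1130 to between 645 and 714, and 6 of the 8 fell and 0 rose at the FDR threshold (edgeR). The 7 AT1 markers went from between 321 and 440.3 to between 3046 and 3234 CPM and the 8 AT2 markers from between 1617 and 2519 to between 17330 and 20182, while 8 endothelial markers went from between 1179 and 1305 to between 2432 and 2560. All markers of these 4 lists were detected at every time-point. At the FDR threshold all 7 AT1, 7 of 8 AT2 and all 8 endothelial markers rose, and the other AT2 marker fell. Of the remaining lists, 4 club cell markers went from between 70.7 and 119 to between 4510 and 5465 CPM, 5 immune markers from between 75.6 and 85.4 to between 2064 and 2653, and 7 erythroid markers from between 4001 and 4744 to between 11991 and 19666. Every marker of these 3 lists rose at the FDR threshold (edgeR). Within the immune sums, *Lyz2* alone held 45.3, 55.1 and 47.9 CPM in the E18.5 libraries and 2483, 1933 and 1939 in those of P5. The part of these cell types in the changes of the 9 genes was not tested.

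Expressed as a percentage of the summed pan-epithelial markers, *Scnn1a* was at 0.811% ± 0.268 (SD, n = 3) at E18.5 and 16.2% ± 0.900 at P5, a log2 difference between the group means of 4.32. The same difference was 3.62 for *Scnn1b*, 3.83 for *Scnn1g*, 3.54 for *Sgk1*, 3.995 for *Aqp1*, 1.69 for *Atp1b1*, 0.49 for *Cftr*, 0.45 for *Slc12a2* and 0.35 for *Nedd4l*. Relative to the summed endothelial markers, *Aqp1* went from 8.08% ± 0.675 to 41.4% ± 1.89, a log2 difference of 2.36, and was at 40.5% ± 0.210 at P8. *Atp1b1* had a difference of 0.045 on that scale, and *Cftr*, *Slc12a2* and *Nedd4l* had differences of -1.15, -1.19 and -1.29.

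**Figure D4:**
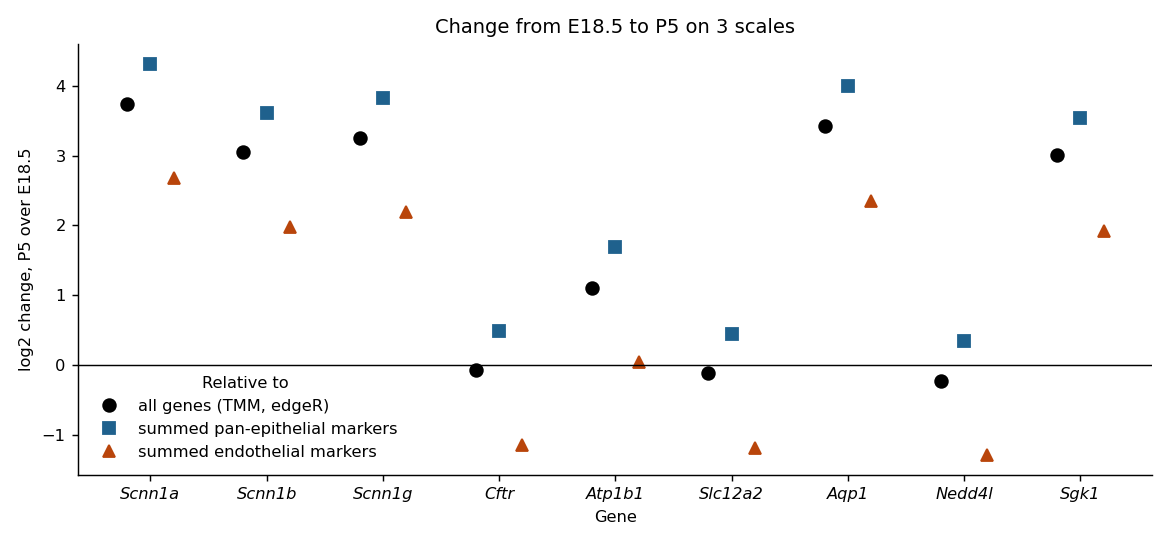
Change of each of the 9 genes from E18.5 to P5 on a log2 scale, relative to all genes (circles, edgeR after TMM), to the summed CPM of 8 pan-epithelial markers (squares) and to the summed CPM of 8 endothelial markers (triangles). Circles are the edgeR estimates, and squares and triangles are log2 differences between the mean percentages of 3 replicates. Scnn1a, Scnn1b, Scnn1g, Aqp1 and Sgk1 lie above 1.9 on these 3 scales, whereas the sign for Cftr, Slc12a2 and Nedd4l depends on the scale. AT1 and AT2 markers, whose sums rose more than the endothelial sum, were not used as a scale.

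Other genes of salt and water transport were read from 9 lists with 94 genes, of which 79 were tested. From E18.5 to P5, 26 of the 79 were past both cutoffs and higher at P5 and 5 were lower, beside 17.5% and 9.34% of all genes tested, and their median log2 fold change was 0.46. The same 2 counts from E15.5 to E18.5 were 4 and 0, beside 1.59% and 1.46% of all genes tested, and from P5 to P8 they were 5 and 1, beside 2.88% and 0.0875%.

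The sodium pump and FXYD list had 4 genes higher and 2 lower of 10 tested, with the pump regulator *Fxyd1* (log2 1.68) among those higher. Of 8 proteases and inhibitors that act on ENaC, 2 were higher, *Tmprss4* (0.935 ± 0.0988 to 7.59 ± 1.34 CPM, log2 3.11) and *Tmprss2* (log2 1.65), and *St14*, the gene of matriptase, fell at the FDR threshold alone (log2 -0.58). None of the 11 kinases, ligases and adaptors was past both cutoffs, with 5 higher and 4 lower at the FDR threshold alone (edgeR), beside the 35.4% and 35.7% of all genes tested given above. The values nearest the cutoff in that list were *Stk39* (-0.86), *Wnk4* (0.85) and *Ywhae* (-0.79).

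Among 11 genes of steroid hormone and β-adrenergic control, 5 were higher and 1 lower. The β1 adrenergic receptor gene *Adrb1* rose from 2.53 ± 0.483 to 38.2 ± 1.75 CPM (SD, n = 3; log2 4.005, SE 0.13, edgeR FDR = 3.7e-10). *Hsd11b1*, whose enzyme regenerates active glucocorticoid, rose from 6.57 ± 3.50 to 55.3 ± 5.15 CPM (log2 3.16). The 1 lower gene was *Fkbp5*, a glucocorticoid-induced gene named here after its values were seen, which fell from 66.3 ± 5.75 to 29.6 ± 1.96 CPM (log2 -1.08, SE 0.19, edgeR FDR = 0.00025). *Tsc22d3*, of the same list, went the other way, from 54.9, 50.4 and 48.8 CPM at E18.5 to 95.5, 97.3 and 95.4 at P5. *Hsd11b2* went from 3.94, 3.85 and 5.44 CPM to 9.22, 10.1 and 11.3. For *Per1* and *Zbtb16* the libraries of E18.5 and P5 overlapped. These genes, too, were named after their values were seen. The median of the list was 0.99.

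Of 12 chloride and bicarbonate genes tested, 2 were higher, *Slc26a9* (log2 1.89) and *Best1* (1.2, at low means of 0.708 and 1.54 CPM), and *Clcn2* fell at the FDR threshold alone (-0.84). All 5 other cation-chloride cotransporter genes stayed under the fold change cutoff, and 4 of them rose at the FDR threshold (edgeR), beside 35.4% of all genes tested, among them *Slc12a4* (0.91) and *Slc12a7* (0.26). The potassium channel list had 5 higher and 2 lower of 9. Its largest change was in *Kcne2*, a channel β subunit gene, from 0.386 ± 0.201 to 37.1 ± 3.03 CPM (log2 6.65), followed by *Kcnj15* (2.56) and *Kcnj10* (-1.93, at low means of 2.16 and 0.529 CPM).

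Of 6 water channel genes 4 were higher, with *Aqp5* at a log2 fold change of 7.15 and *Aqp9* at 2.82 (low means of 0.327 and 2.175 CPM). *Aqp7* had no count in the E18.5 libraries and 0, 16 and 91 counts at P5, on average at least 10.5-fold higher than a floor of 3 counts per library, so its call rests on 2 of 3 P5 libraries. Its P8 levels were 4.70, 10.1 and 0.197 CPM, and the 2 highest were in the libraries with the most thymus marker reads. In the list of other sodium-coupled carriers and cation channels 4 of 7 were higher, with the phosphate carrier gene *Slc34a2*, itself an AT2 marker, from 17.8 ± 8.71 to 1361 ± 86.5 CPM (log2 6.35), the glucose carrier gene *Slc5a1* (3.10, at low means of 0.239 and 1.94 CPM) and the amino acid carrier gene *Slc6a14* (2.11).

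**Figure D5:**
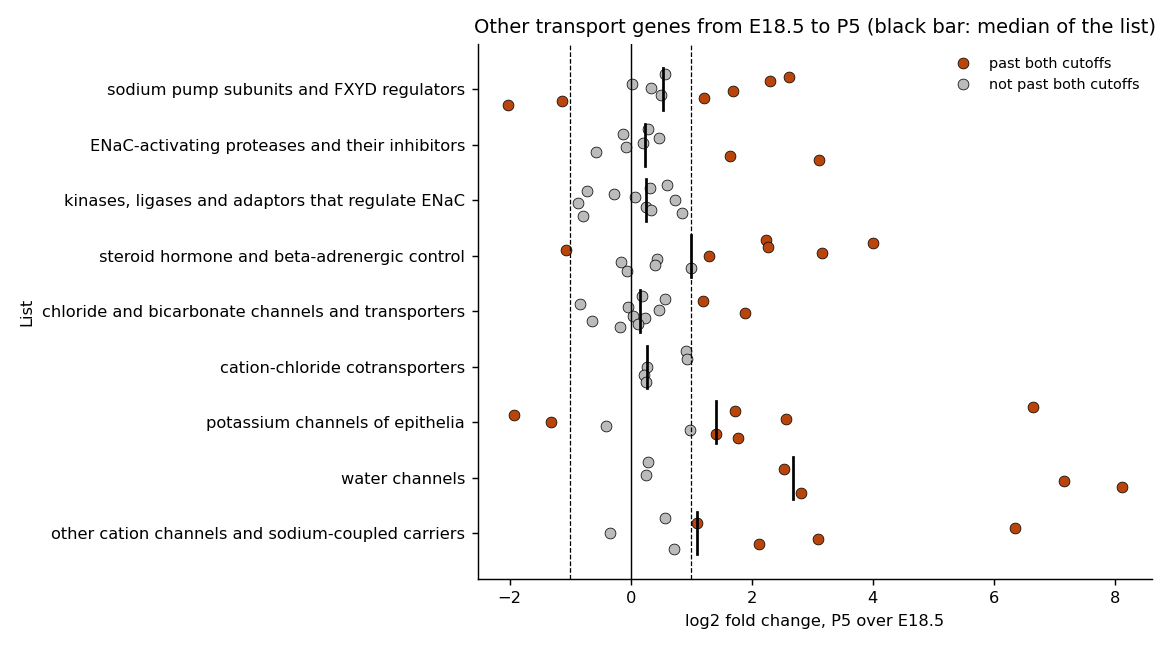
The log2 fold change, P5 over E18.5, of the 79 other transport genes tested, in 9 lists on the vertical axis, with filled orange points for genes past both cutoffs, grey points for the rest, a black bar at the median of each list and dashed lines at 1 and -1. The medians lie between 0.15 for the chloride and bicarbonate list and 2.68 for the water channels.

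Among all genes tested, those whose time course was nearest to each member were found by the root mean square difference of log2 levels over the 12 libraries, each gene centred on its own mean. *Ace* (0.22), *Ager* (0.23) and *Cdkn2b* (0.24) were nearest to *Scnn1a*, whose own levels spanned 5.54 on that scale. For *Scnn1b* they were *Parp14* (0.14), *Inhbb* (0.15) and *Mettl7a1* (0.16), and for *Scnn1g* *Serpina3c* (0.15), *Rspo4* (0.19) and *Mettl7a1* (0.20). *Clic5* (0.18), *Sftpc* (0.19) and *Rspo4* (0.21) were nearest to *Aqp1*, and *Sirpb1b* (0.25), *Rnase6* (0.25) and *Ifitm6* (0.26) to *Sgk1*.

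The nearest to the other 4 members were *Stom* (0.11), *Dhrs7* (0.12) and *Selenbp1* (0.13) for *Atp1b1*, *Usp9x* (0.088) and *Usp34* (0.11) for *Cftr*, *Maob* (0.078), *Prrg3* (0.082) and *Glis3* (0.11) for *Slc12a2* and *Cdh1* (0.099), *Chd9* (0.11) and *Adamtsl2* (0.11) for *Nedd4l*. These neighbours are a description of 12 shared libraries and carry no test.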

How the data were processed

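RNA of 12 whole lungs was sequenced from TruSeq libraries. Per the submitters' processing notes, the authors aligned reads to mm10 with TopHat2 2.1.1 and Bowtie2 2.3.4 and counted them per Gencode gene with HTSeq 0.10.0. They deposited raw counts for the 16152 genes they kept and CPM for 51825 genes, and the deposited CPM equal each count divided by the mapped reads of its library (48436716 to 62279460). The strand setting was not given in the sources used here, and reads of overlapping genes on opposite strands cannot be told apart. The deposited splicing values are listed by event without a gene and were not used. The 9 genes and all lists were chosen with earlier results of these data known.

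Ensembl identifiers were matched to symbols for 16136 genes. Counts were tested with edgeR 4.0.16 (R 4.3.3): TMM, then the quasi-likelihood test in 1 fit of all 12 libraries over the 15994 genes that reached 1 CPM in 3 or more libraries, with Benjamini-Hochberg adjustment over all of them. The standard error is the log2 fold change over the square root of its F statistic. A gene was past both cutoffs at an FDR under 0.05 and an absolute log2 fold change above 1. Ratios were compared by exact permutation. Some genes that the rule for named genes selects, and 1 of the ratios, are not reported here. Lengths are merged exons of GENCODE M21 on GRCm38, a later release than that counted. The fit was tested on simulated counts. Named genes are the 9 members, the 3 largest changes from E18.5 to P5 in each list (FDR under 0.05, mean of at least 1 CPM), the genes of a ratio and the 3 nearest time courses. Alternatives used DESeq2 1.42.0, limma 3.58.1 on log2(CPM + 1) or log2(CPM + 0.1), other scalings and filters, a fit of the 2 compared time-points alone, a replicate block, and each library left out. Replicates differed by more than sampling noise (mean chi-square per gene 12.9 to 75.2). The number of libraries and these read totals limit the precision.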

Additional observations from a re-analysis of the deposited data

How the results depend on the processing

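From E18.5 to P5, 6 of the 9 genes were past both cutoffs under every alternative with all libraries, and 5 or 6 with 1 library left out. Over the whole course to P8 it was 6 with 1 library left out. The smaller counts depended on the settings: from E15.5 to E18.5, 2 genes became 7 at an FDR under 0.05 alone, 1 with limma on log2(CPM + 1), where *Scnn1a* was at 0.99, and 1 to 2 with 1 library left out. From P5 to P8, 0 genes became 1 at an FDR alone and stayed at 0 with 1 library left out. The other transport genes past both cutoffs numbered 6 from P5 to P8, and 1 to 10 with 1 library left out (1 without P8 replicate 2, 2 without P5 replicate 2, P5 replicate 3 or P8 replicate 1, 3 without P5 replicate 1 and 10 without P8 replicate 3), and 30 to 32 from E18.5 to P5. Of the 8 ratios, 7 had an adjusted p under 0.05 (exact permutation), and 7 with any 1 library left out. Against 644 values of single genes and ratios under an alternative, 10 changed sign, each of them without passing a test: *Sgk1* between E15.5 and E18.5 (-0.14 to 0.30 with 1 library left out, negative without E15.5 replicate 1 or E18.5 replicate 3) and between P5 and P8 (-0.00077 with the replicate block, and -0.12 to 0.22 with 1 library left out, negative without P5 replicate 2, P5 replicate 3 or P8 replicate 3), *Scnn1g* between P5 and P8 (-0.11 to 0.094, negative without P5 replicate 3 or P8 replicate 3), *Slc12a2* between P5 and P8 (0.043 without the 3 libraries with most thymus marker reads, a setting chosen after seeing the data) and *Cftr* from E15.5 to P8 (-0.10 to 0.27, negative without E15.5 replicate 2). The cause was not tested. With only the 2 time-points compared in the fit, 2, 6, 0 and 6 genes were past both cutoffs over the 3 intervals and the whole course, as in the fit of all 12 libraries, but at the FDR threshold alone *Scnn1b*, *Scnn1g* and *Atp1b1* lost their calls from E15.5 to E18.5 (FDR 0.053, 0.069 and 0.057), while *Nedd4l* from E18.5 to P5 (0.046) and *Scnn1a* and *Nedd4l* from P5 to P8 (0.021 and 0.038) gained one. Replicate numbers of different time-points share only a number: of 18 same-numbered pairs, 4 had deviations correlated above 0.1 (range -0.31 to 0.29), and with the replicate block 2, 6 and 0 genes were past both cutoffs over the 3 intervals in order of age.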
